A study of Mus musculus with 14 samples.

Results

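Cholesterol synthesis and its regulation were followed through 30 genes, taken by name from the 55450 gene identifiers counted in RNA-seq libraries of mouse long-term hematopoietic stem cells (LT-HSCs). The genes were chosen for their role, with earlier results of these data known. They comprise 8 enzymes of the mevalonate pathway and 11 enzymes that make squalene and carry it to cholesterol. The others are 5 genes of the SREBP system that senses sterols, and 6 genes of sterol transfer, efflux and uptake control. All 30 had enough reads to be tested.

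The cells came from female C57BL/6 mice, and no genetic modification is named in the labels. Post-transplant libraries held donor-derived LT-HSCs, sorted 16 weeks after 1000 Selp high or 1000 Selp low LT-HSCs of old donors had been given to lethally irradiated recipients aged 10 to 16 weeks. Their inputs define the Selp high-derived group (3 libraries) and the Selp low-derived group (3 libraries). Pre-transplant libraries held LT-HSCs taken directly from 4 old mice, which the design text puts at more than 24 months, and parted by surface P-selectin (Selp), an adhesion receptor, into Selp high (4 libraries) and Selp low (4 libraries). Each library held 5000 cells of the phenotype Sca-1+, c-Kit+, CD150+ and CD48- that lacked lineage markers. The post-transplant cells were also gated on CD45.2, which marks the donor, and were not gated on P-selectin. Stage of collection therefore cannot be told apart from the irradiated young host, the transplant itself and this gate. In bulk RNA, fewer cells of a type and less RNA per cell cannot be told apart either.

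Animal cells make cholesterol from acetyl-CoA through mevalonate and squalene, and the mevalonate branch also supplies isoprenoids for protein prenylation, ubiquinone and dolichol. When membranes of the endoplasmic reticulum are poor in sterol, the escort protein SCAP carries the SREBP factors to the Golgi, where they are cut and released to switch on synthesis and uptake genes, while INSIG proteins hold them back when sterol is plentiful. Oxysterols made from excess cholesterol activate the LXR receptors (Nr1h2 and Nr1h3), which induce the efflux transporters Abca1 and Abcg1 and the ubiquitin ligase Mylip, which marks lipoprotein receptors for degradation. In mouse models, loss of Abca1 and Abcg1 expands hematopoietic stem and progenitor cells.

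Reads assigned to genes numbered 22374794 to 38216775 per library, and 16878 genes passed the expression filter. The summed level of 10 HSC markers was 3080 to 4256 CPM (counts relative to scaled library size) after and 4368 to 5309 CPM before transplantation, none of the 10 was at 0 in any library, and 7 of them were called lower after transplantation. Of all markers for 9 other cell types, the neutrophil list ranged most, with sums of 350.2 to 12270 CPM after and 281.3 to 19740 CPM before transplantation. Of 5 tested megakaryocyte and platelet markers, Pf4 (5.01-fold), Ppbp (5.68-fold) and Gp1ba (1.74-fold) were called higher after transplantation and Gp9 lower (log2 change -0.53), Gp6 was at 0 in every library, and the sums overlapped at 244.2 to 347.3 CPM after and 204.7 to 376.5 CPM before it. Of the endothelial markers 2 of 4 tested, and of the stromal markers 2 of 5, were called lower. Of all tested genes, 12.9% were called higher and 14.6% lower after transplantation. All 15 G2 and M phase genes were called higher after transplantation, with sums of 1082 to 2301 CPM against 199.6 to 767.0 CPM before it. Selp itself was at 243.2 to 314.7 CPM after and 476.8 to 764.3 CPM before transplantation. Before it, Selp RNA overlapped between Selp high (615.2 to 764.3 CPM) and Selp low (476.8 to 669.1 CPM) libraries. That log2 difference of 0.31 was not called (edgeR adjusted p = 0.957). On principal component 2, with 15.1% of the variance, Selp low-derived replicate 2 and both libraries of mouse 4 scored lowest of all (-60.5 to -54.5), and Selp high-derived replicate 1 scored highest of its stage (46.9). Counts below are also given without these libraries, the 2 of each stage left out together. Selp high replicate 1 scored highest of all (50.2), with Selp low replicate 1 of the same mouse at 34.3. That pair was left out only 1 library at a time. P-values measure only the spread among these libraries, which for the post-transplant groups may be recipients or repeats of 1 recipient. The pre-transplant libraries are Selp high and Selp low pairs from 4 mice. The main fit treats them as independent, and a fit with the replicate block is among the alternatives.

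Promoter sequence was matched by symbol for 25 of the 30 genes, as windows from 250 bases before to 50 bases after the start of transcription, from RefSeq on GRCm38.p6. Sqle, Fdft1, Fdps, Stard4 and Abcg1 had no entry. The windows below belong to genes called between stages. Hmgcs1, Hsd17b7, Srebf1 and Nr1h3 had the smallest p-value of their role group among genes with a window, and Srebf2 is added as the other SREBP gene. They are written along the gene's own strand, and capitals mark 4 motifs wherever they occur on either strand. The first is the CCAAT box, bound by NF-Y. The second is the GC box with the letters GGGCGG, bound by Sp1-type factors. Both kinds of factor are known partners of SREBP at sterol genes. The third is the E-box with the letters CACGTG. The last is the core of the sterol regulatory element with the letters TCACNCCAC. Hmgcs1 (HMG-CoA synthase) is at chr13:119690101-119690400, plus strand. Hsd17b7 (a sterol ketone reductase) is at chr1:169969156-169969455, minus strand. Srebf1 is shown for 1 of 3 starts, at chr11:60210422-60210721, minus strand. Srebf2 is at chr15:82147019-82147318, plus strand. Nr1h3 is shown for 1 of 2 starts, at chr2:91194986-91195285, minus strand.
Hmgcs1: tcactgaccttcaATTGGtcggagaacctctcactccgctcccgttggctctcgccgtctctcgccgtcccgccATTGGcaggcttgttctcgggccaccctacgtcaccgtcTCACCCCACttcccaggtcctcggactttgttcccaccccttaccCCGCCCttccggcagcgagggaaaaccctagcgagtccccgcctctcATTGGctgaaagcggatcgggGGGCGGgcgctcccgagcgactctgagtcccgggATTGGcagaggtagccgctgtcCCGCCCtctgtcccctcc
Hsd17b7: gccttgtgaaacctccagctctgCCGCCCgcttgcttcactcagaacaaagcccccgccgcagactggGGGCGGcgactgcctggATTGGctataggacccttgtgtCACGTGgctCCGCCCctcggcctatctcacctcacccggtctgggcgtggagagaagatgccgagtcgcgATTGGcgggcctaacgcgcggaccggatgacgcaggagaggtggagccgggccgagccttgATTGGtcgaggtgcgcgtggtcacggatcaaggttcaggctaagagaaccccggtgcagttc
Srebf1: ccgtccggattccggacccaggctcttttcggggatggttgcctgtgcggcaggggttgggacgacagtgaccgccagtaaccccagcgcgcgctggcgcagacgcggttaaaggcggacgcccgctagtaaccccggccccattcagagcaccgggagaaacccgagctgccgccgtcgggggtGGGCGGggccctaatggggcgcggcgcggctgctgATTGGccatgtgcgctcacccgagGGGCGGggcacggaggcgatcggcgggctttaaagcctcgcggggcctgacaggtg
Srebf2: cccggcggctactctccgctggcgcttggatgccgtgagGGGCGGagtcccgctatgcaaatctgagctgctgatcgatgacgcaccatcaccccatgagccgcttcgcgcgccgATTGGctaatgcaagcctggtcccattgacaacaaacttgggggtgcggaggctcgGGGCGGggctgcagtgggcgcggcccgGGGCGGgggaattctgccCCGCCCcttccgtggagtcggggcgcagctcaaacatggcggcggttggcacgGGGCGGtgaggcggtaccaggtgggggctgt
Nr1h3: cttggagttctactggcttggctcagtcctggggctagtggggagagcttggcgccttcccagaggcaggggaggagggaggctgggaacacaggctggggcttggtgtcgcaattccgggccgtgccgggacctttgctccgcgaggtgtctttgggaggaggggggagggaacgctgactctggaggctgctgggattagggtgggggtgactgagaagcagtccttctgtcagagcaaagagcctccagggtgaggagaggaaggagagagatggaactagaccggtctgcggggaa

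The Hmgcs1 window held 4 CCAAT boxes, 3 GC boxes and 1 sterol regulatory element core, whose first base lies at -137 from the start. The Hsd17b7 window held 3 CCAAT boxes, 3 GC boxes and 1 E-box. The Srebf2 window held 1 CCAAT box and 5 GC boxes, and neither Nr1h3 window held any of the letters searched. On both strands and over every listed start, the CCAAT box occurred in 20 of the 25 genes (80.0%), against 42.4% of the 11389 tested genes with a window. The GC box occurred in 21 of 25 (84.0%) against 65.8%, and the E-box in 6 of 25 (24.0%) against 11.5%. The strict sterol regulatory element core occurred in Hmgcs1 alone among the 25 genes, against 1.42% of tested genes, and the direct repeat read by LXR, a pair of AGGTCA copies with 4 bases between them, occurred in 0 of 25 and in 0 of the tested genes. These are matches of letters within 300 bases and not measured binding.

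Levels per transcript length spanned more than 2 orders of magnitude. Srebf2, which encodes the SREBP that mainly drives cholesterol synthesis, was highest, at 54.8 FPKM as the mean over all libraries on the summed exon length. Insig1 (39.8 FPKM), Nr1h2 (33.1 FPKM) and Srebf1 (27.6 FPKM) followed, so regulators took the top 4 places. Among enzymes, Ebp (26.8 FPKM), Sqle (25.6 FPKM), Cyp51 (22.9 FPKM) and Acat2 (22.5 FPKM) were highest. Fdps (0.209 FPKM), Tm7sf2 (1.06 FPKM) and Idi1 (1.62 FPKM) were lowest. With the longest transcript as the length, the same 4 regulators stayed on top and the same 3 enzymes at the bottom. The order of the highest enzymes changed. Msmo1 (34.75 FPKM, from 16.79 FPKM) then lay above Sqle (31.8 FPKM) and Cyp51 (25.76 FPKM), and Dhcr7 (25.46 FPKM) lay just above Acat2 (25.38 FPKM).

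The low reading of Fdps, farnesyl diphosphate synthase, has a limit in the counting. Stretches at 95% identity or more over at least 100 bases, in transcripts of 6 other genes, covered 16.7% of its transcript. These genes include overlapping neighbours such as Gm43738, with which 26.7% of its exons were shared. Such stretches covered 65.6% of Acat2 (in Acat3 and Tcp1) and 54.7% of Fdft1 (in Gm6781 and the overlapping Ctsb). They covered 33.3% of Idi1 and 27.3% of Ggps1, in part through the overlapping genes Gm48574 and Arid4b. The values of these genes are therefore uncertain. Hmgcs1 shared 12.1% of its exon bases with Gm48342, Tm7sf2 12.1% with Vps51 and Scap 13.2% with 5830462I19Rik. Near-identical stretches covered 18.9% of Scap, and 7.11% of Msmo1 in transcripts of 59 other genes. Sqle, Mvk, Pmvk and Mvd had no such stretch.

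**Figure D1:**
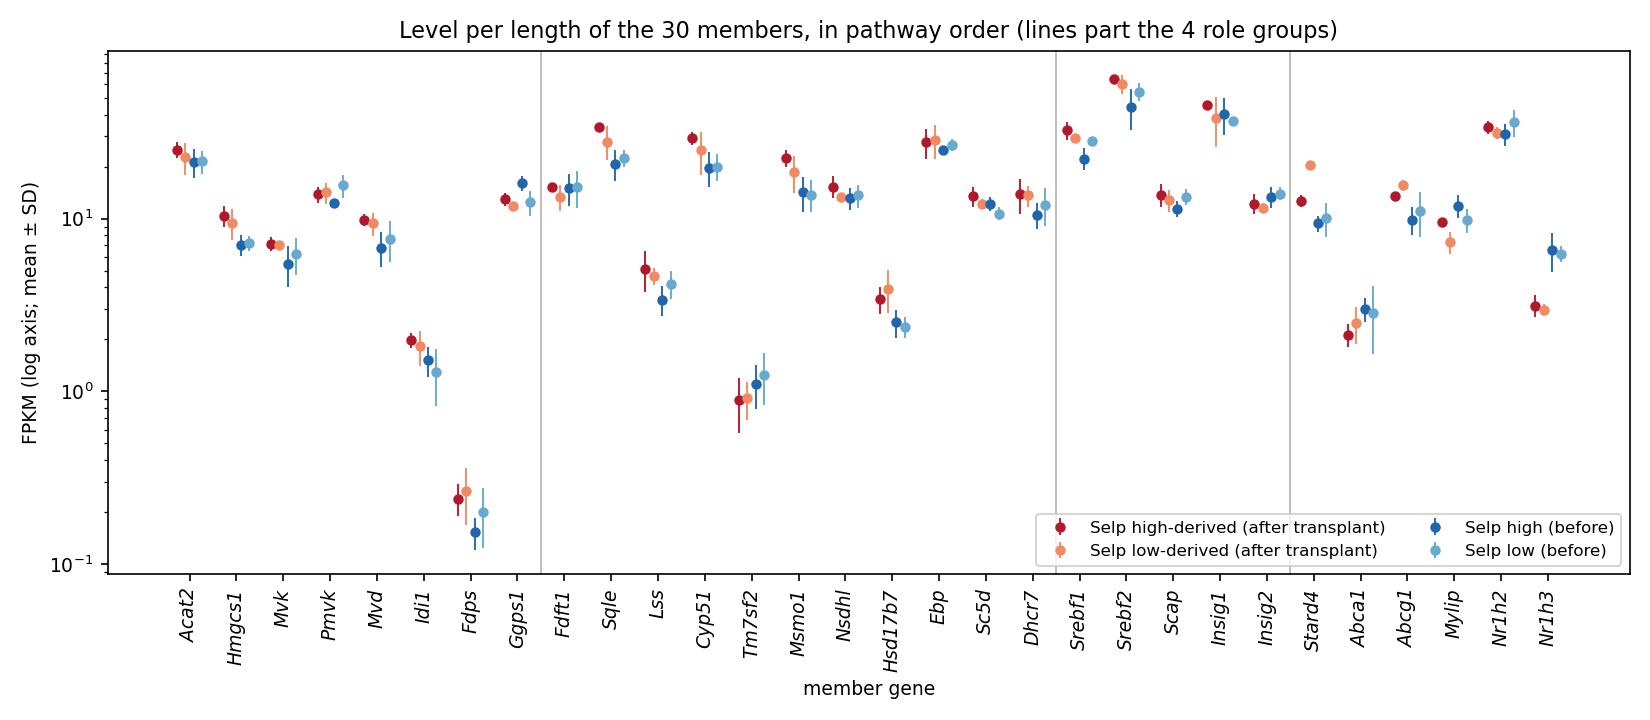
Level per length (FPKM, log axis, mean ± SD) of the 30 genes in Selp high-derived (n = 3), Selp low-derived (n = 3), Selp high (n = 4) and Selp low (n = 4) libraries, with lines between the 4 role groups. The 4 groups lie close together for nearly every gene relative to the range between genes, from 0.209 FPKM for Fdps to 54.8 FPKM for Srebf2.

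The comparison of stages asked what differed between old LT-HSCs recovered from young hosts and those never transplanted. Synthesis enzymes and both SREBP genes had mostly higher values after transplantation, the sterol carrier gene Stard4 and the exporter gene Abcg1 were higher, and Nr1h3, the gene of LXR alpha, was 2.11-fold lower. By edgeR's quasi-likelihood test with Benjamini-Hochberg adjustment, 9 of the 30 genes rose and 2 fell at an adjusted p under 0.05, while 19 did not pass. Of all 16878 genes tested, 12.9% rose and 14.6% fell. The 19 synthesis enzymes had 5 calls up and 0 down, 16 positive changes and a median log2 change of 0.29, against -0.01 for all genes. Without both mouse 4 libraries 8 rose and 2 fell, and without the 2 post-transplant libraries that stood apart 8 rose and 1 fell. The first fit lost Cyp51 and Srebf2 and gained Idi1. The second lost Srebf2, Abcg1 and Mylip and gained Lss.

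The summed level of the synthesis enzymes was modestly higher after transplantation, though 14 of the 19 were not called and 3 had negative changes. Sqle, Msmo1 and Cyp51, all called, had the highest mean CPM of the enzymes in every group and weigh most in the sum. Summed over the 19 enzymes, levels were 820.9, 1055 and 1145 CPM (lowest, median, highest) in 6 post-transplant libraries and 707.2, 842.4 and 996.1 CPM in 8 pre-transplant libraries. The stages overlapped through Selp low-derived replicate 2 alone, which also held the highest neutrophil marker sum of its stage. The other post-transplant libraries, at 1023 CPM or more, lay above every pre-transplant one. The G2 and M phase genes and the called megakaryocyte and platelet markers given above moved with stage too, and their part in the enzyme values was not tested.

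In the mevalonate pathway, Hmgcs1 (chromosome 13, 119690379 to 119708260, plus strand, GRCm38) was the 1 enzyme of 8 called. It measured 40.04, 52.5 and 50.6 CPM in Selp high-derived and 44.8, 34.0 and 51.1 CPM in Selp low-derived libraries, against 36.5, 26.5, 32.0 and 34.7 CPM in Selp high and 34.8, 30.7, 30.3 and 36.8 CPM in Selp low libraries. A single post-transplant library, Selp low-derived replicate 2, fell within the pre-transplant range. The log2 change was 0.47 ± 0.11 (SE, adjusted p = 0.0068), and it was called under all 22 alternative settings.

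Mvd, which makes isopentenyl diphosphate, and Idi1, its isomerase, had positive changes of 0.42 ± 0.16 and 0.44 ± 0.20 that did not pass (adjusted p = 0.069 and 0.119 by edgeR). Fdps changed by 0.53 ± 0.30 and Mvk, mevalonate kinase, by 0.28 ± 0.15, neither called. Ggps1, which leads to geranylgeranyl groups rather than to cholesterol, was the 1 mevalonate gene with a negative value, -0.19 ± 0.09. Pmvk, phosphomevalonate kinase, was at 23.8 CPM after and 22.6 CPM before transplantation (medians), a change of 0.01 ± 0.11.

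Of the 11 enzymes of squalene and sterol synthesis, 4 rose. Sqle, squalene epoxidase and a control point of the pathway (chromosome 15, 59315077 to 59331192, plus strand), measured 183.5, 200.8 and 183.7 CPM in Selp high-derived and 167.0, 116.1 and 182.0 CPM in Selp low-derived libraries. It measured 144.4, 102.7, 120.0 and 91.3 CPM in Selp high and 134.3, 103.2, 126.1 and 133.8 CPM in Selp low libraries. All post-transplant libraries but Selp low-derived replicate 2 exceeded every pre-transplant one. The change was 0.52 ± 0.12 (SE, edgeR adjusted p = 0.0052).

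Msmo1, the oxidase that starts removal of the methyl groups at carbon C-4, ran at 92.6, 132.5 and 148.7 CPM after transplantation (lowest, median, highest) and 57.6, 93.2 and 105.2 CPM before it, a 1.46-fold difference. Hsd17b7, which completes that removal (chromosome 1, 169949535 to 169969241, minus strand), ran at 14.6, 17.4 and 26.4 CPM against 9.99, 12.4 and 15.0 CPM, a 1.51-fold difference. Both overlapped between stages, and both were called under all 22 alternatives (edgeR adjusted p = 0.0144 for Msmo1 and 0.00952 for Hsd17b7). With 1 library left out, the edgeR adjusted p reached 0.0499 for Msmo1, just under the threshold, and 0.0374 for Hsd17b7. In Hsd17b7 the highest library was Selp low-derived replicate 2, the one that was lowest for Sqle, Hmgcs1 and Msmo1.

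Cyp51, lanosterol demethylase, ran at 75.6, 126.6 and 137.0 CPM against 66.0, 87.1 and 114.8 CPM, with a change of 0.44 ± 0.15 (edgeR adjusted p = 0.0386). That call was lost in 11 of 22 alternatives, 1 being the fit without both mouse 4 libraries, with adjusted p up to 0.119. Lss, lanosterol synthase, had a change of 0.37 ± 0.14 and Dhcr7, the reductase of the last step, 0.29 ± 0.14, neither called (edgeR adjusted p = 0.0657 for Lss). Fdft1, squalene synthase, at -0.08 ± 0.14 and Tm7sf2, a sterol reductase, at -0.38 ± 0.23 were the 2 negative values. Nsdhl, Ebp and Sc5d, which act late in the pathway, lay between 0.10 and 0.16.

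**Figure D2:**
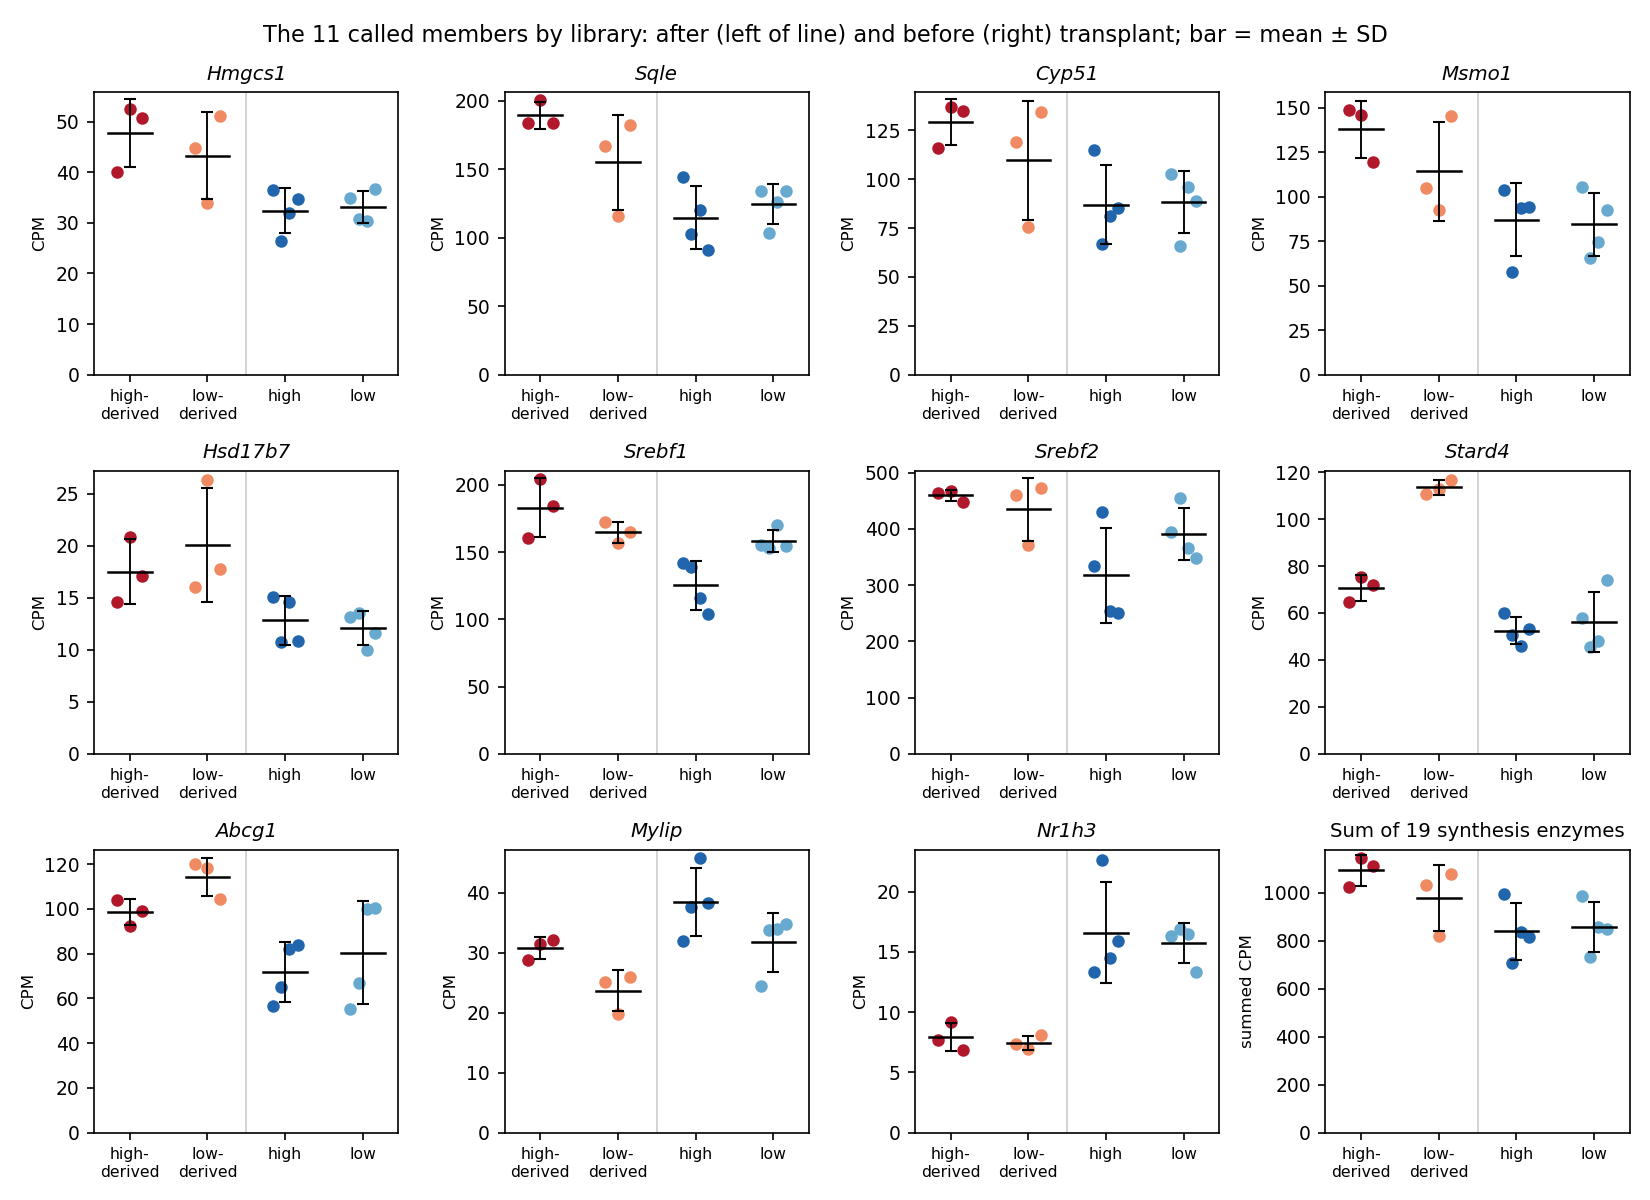
Level (CPM, linear axes from 0) of the 11 genes called between stages, and the sum over 19 synthesis enzymes, in each library, with post-transplant groups left of the vertical line and pre-transplant groups right of it. Bars give mean ± SD, and Nr1h3 is the 1 gene whose 6 post-transplant libraries, at 6.87 to 9.16 CPM, all lie on one side of the 8 pre-transplant libraries, at 13.3 to 22.7 CPM.

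Among the regulators, both SREBP genes rose with stage. Srebf1, whose product drives fatty acid synthesis above all, measured 160.2, 204.5 and 184.7 CPM in Selp high-derived and 172.7, 157.1 and 165.1 CPM in Selp low-derived libraries, against 142.1, 138.9, 116.2 and 104.3 CPM in Selp high and 155.5, 153.2, 170.5 and 154.7 CPM in Selp low libraries. The 4 Selp high libraries were the lowest of the 14, and of the Selp low libraries only replicate 3 reached into the post-transplant range. The stage change was 0.30 ± 0.08 (edgeR adjusted p = 0.0155), and it missed the threshold without Selp high-derived replicate 2 (adjusted p = 0.0613).

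Srebf2 measured 463.9, 467.0 and 447.8 CPM in Selp high-derived and 459.7, 371.2 and 473.4 CPM in Selp low-derived libraries. It measured 334.8, 429.6, 253.7 and 251.0 CPM in Selp high and 395.1, 454.8, 365.3 and 348.1 CPM in Selp low libraries. Mouse 2 gave the highest value in each pre-transplant group, and the lowest library by far on the post-transplant side was Selp low-derived replicate 2. The change of 0.34 ± 0.12 passed narrowly (edgeR adjusted p = 0.0463) and was lost in 14 of 22 alternatives, both fits without the libraries that stood apart among them. Scap (0.10 ± 0.10), Insig1 (0.12 ± 0.14) and Insig2 (-0.20 ± 0.09) were not called.

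Genes of sterol transfer, efflux and uptake control parted in both directions. Stard4 encodes a soluble carrier that moves sterol between membranes. It ran at 64.6, 93.2 and 116.8 CPM after and 45.4, 51.9 and 73.8 CPM before transplantation, and the 3 Selp low-derived libraries held the highest 3 values. The stages overlapped through Selp low replicate 4, at 73.8 CPM. The change of 0.72 ± 0.11 (edgeR adjusted p = 0.000207), 1.65-fold, was called in all 22 alternatives. Abcg1, which exports cholesterol to high-density lipoprotein (chromosome 17, 31057675 to 31117988, plus strand), ran at 92.4, 104.1 and 120.0 CPM against 55.2, 74.3 and 100.2 CPM, a change of 0.48 ± 0.14 (adjusted p = 0.0186). It lost its call without Selp high-derived replicate 1 (adjusted p = 0.0514) and without that library and Selp low-derived replicate 2 (adjusted p = 0.0821). Abca1, the other exporter, had a change of -0.35 ± 0.19 and was not called, so the 2 efflux genes had estimates of opposite sign.

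Nr1h3 (chromosome 2, 91184061 to 91202834, minus strand) held the largest change of the 30. It measured 7.68, 9.16 and 6.87 CPM in Selp high-derived and 7.40, 6.93 and 8.07 CPM in Selp low-derived libraries, against 13.3, 22.7, 14.5 and 15.9 CPM in Selp high and 16.3, 16.9, 16.5 and 13.3 CPM in Selp low libraries. No post-transplant library reached the lowest pre-transplant one, a complete parting that 5.47% of all tested genes showed in this direction and 4.28% in the other, where 0 of the 30 did. The change was -1.07 ± 0.14 (edgeR adjusted p = 0.000106), a 2.11-fold lower level, and was called in all 22 alternatives.

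LXR alpha is abundant in macrophages, and the 10 monocyte and macrophage markers summed to 81.3 to 201.8 CPM after and 37.97 to 494.3 CPM before transplantation, with 0 of 10 called by edgeR and 0 at an unadjusted p under 0.05. The summed endothelial markers were 55.2 to 77.7 CPM after and 101.0 to 161.2 CPM before transplantation. Their part in the Nr1h3 values was not tested. Nr1h2, the gene of LXR beta and the more abundant receptor here, was at 108.3 CPM after and 114.1 CPM before transplantation (medians), a change of -0.04 ± 0.10. Mylip ran at 19.7, 27.4 and 32.1 CPM against 24.4, 34.4 and 45.8 CPM, a change of -0.37 ± 0.11 (edgeR adjusted p = 0.0256). Its call was lost in 4 of 22 alternatives, with adjusted p of 0.0978 without Selp high-derived replicate 1 and Selp low-derived replicate 2.

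**Figure D3:**
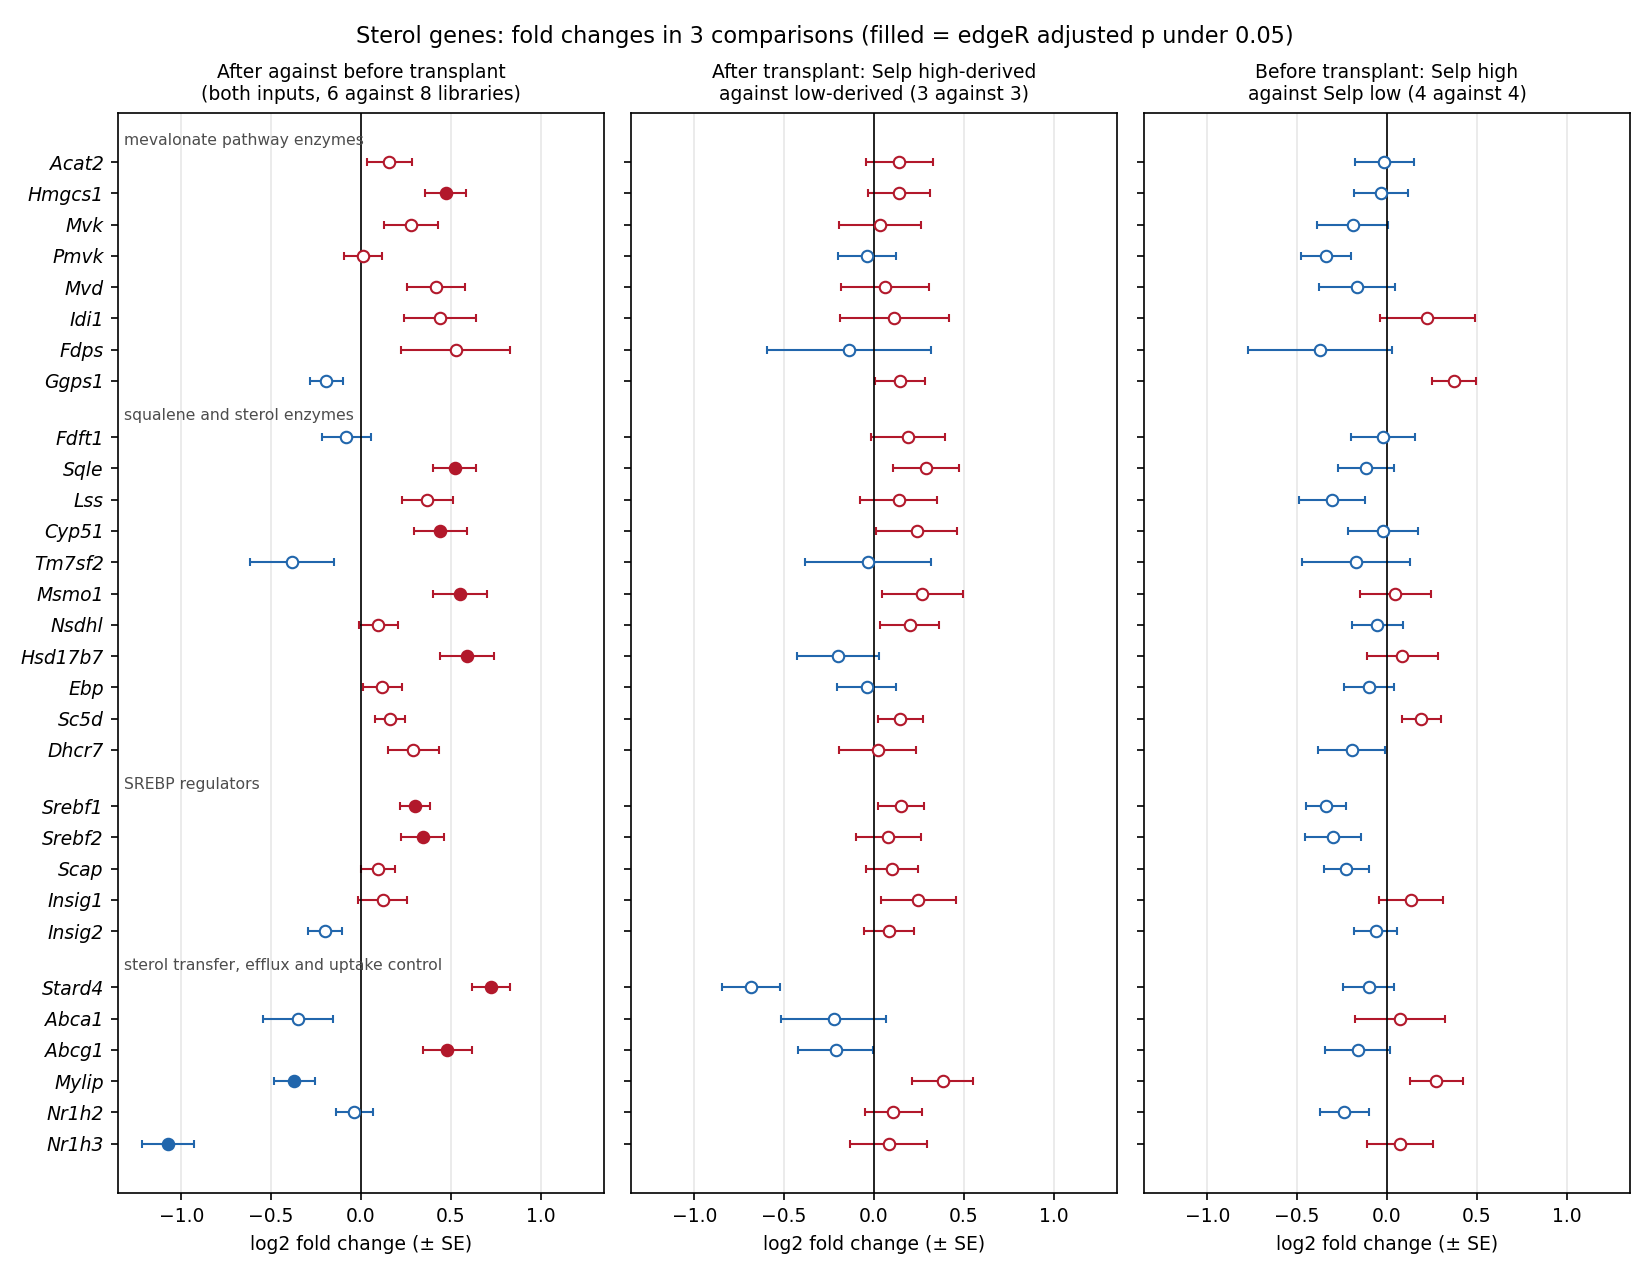
Log2 fold change ± SE of each of the 30 genes for post-transplant against pre-transplant libraries, Selp high-derived against Selp low-derived libraries, and Selp high against Selp low libraries, with filled points called by edgeR. The stage panel has 9 filled points to the right, led by Stard4 at 0.72, and 2 to the left, led by Nr1h3 at -1.07. The 2 panels on P-selectin have no filled point.

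The stage comparison was repeated within each input. For Selp high, comparing Selp high-derived with Selp high libraries, 5 of the 30 genes rose (Hmgcs1, Sqle, Msmo1, Srebf1 and Srebf2) and Nr1h3 fell, beside 7.63% of all genes up and 7.62% down. Without both mouse 4 libraries, and without the 2 post-transplant libraries that stood apart, 4 rose. Both of these fits lost Msmo1 and Srebf2, while the first gained Stard4 and the second Lss. For Selp low, comparing Selp low-derived with Selp low libraries, Hsd17b7 and Stard4 rose and Nr1h3 fell, beside 5.01% up and 6.46% down. With the replicate block Hsd17b7 was not called there (limma voom adjusted p = 0.0541) and Abcg1 was. Over the 22 alternatives Sqle kept its call within Selp high, and Stard4 and Nr1h3 kept theirs within Selp low, in all, while Srebf2 lost its call within Selp high in 13, Msmo1 in 12 and Hsd17b7 within Selp low in 12. The synthesis enzymes had median log2 changes of 0.39 and 0.18 in these 2 comparisons, against -0.02 and 0.00 for all genes. Leaving out Selp low replicate 1 gave a median of 0.35 within Selp low, and leaving out replicate 4 gave 0.11, and within Selp high it ran from 0.30 to 0.51 with 1 library left out. Nr1h3 changed by -1.07 ± 0.20 within Selp high and -1.08 ± 0.20 within Selp low. Within Selp high the libraries did not overlap for 10 of 30 genes toward higher values, against 14.5% of all genes, and for 3 toward lower values, against 14.7%. Within Selp low this held for 3 of 30 toward higher values, against 10.2%, and for 2 toward lower values, against 11.9%.

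Between these inputs Srebf1 and Stard4 had the most unequal estimates. Srebf1 changed by 0.55 ± 0.12 within Selp high (edgeR adjusted p = 0.00665) and by 0.06 ± 0.12 within Selp low (adjusted p = 0.804). Stard4 changed by 0.43 ± 0.15 within Selp high (adjusted p = 0.0694) and by 1.01 ± 0.15, or 2.02-fold, within Selp low (adjusted p = 0.00114). Tested directly, the difference was 0.49 ± 0.17 for Srebf1 and -0.58 ± 0.21 for Stard4, and neither passed (edgeR adjusted p = 0.879 for each, rank 183 and 254 of 16878 genes by p). In that test 2 of 30 genes and 874 of 16878 had an unadjusted p under 0.05, edgeR called 0% of all genes, and DESeq2 called 11 genes, none of them among the 30. Scap (0.33 ± 0.19) and Sqle (0.41 ± 0.24) came next by p-value. All 15 G2 and M phase genes had positive values in that test, with a median of 0.70, and none was called. All 11 neutrophil markers (median -1.99) and all 5 mast cell and basophil markers (median -3.65) had negative values there. Of the 10 monocyte and macrophage markers, 8 had positive values, with a median of 0.57. None of these markers was called, and their part in the values of the 30 genes was not tested.

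The comparison before transplantation asked whether sterol genes differ between old LT-HSCs with much and with little surface P-selectin. No gene of the 30 was called, and edgeR called 0% of all genes, with 3 of 30 and 863 of 16878 at an unadjusted p under 0.05. DESeq2 called 11 genes in all and none of the 30, and limma voom called 0. The synthesis enzymes had a median log2 change of -0.05, with 5 positive and 14 negative values. That median was -0.18 without Selp high replicate 1, and 0.04 when replicate 2 of that group was left out. All 15 G2 and M phase genes had negative values here, with a median log2 change of -0.56, against -0.02 for all genes. By edgeR none of the 15 was called and 5 had an unadjusted p under 0.05. All 10 monocyte and macrophage markers also had negative values, with a median of -0.67. Of the 11 neutrophil markers, 10 had positive values, with a median of 0.31, and no marker of either list was called. The part of these genes in the values of the 30 was not tested. Pairing the libraries by mouse, 8 of 30 genes and 2243 of 15426 had an unadjusted p under 0.05 and 2 of all genes were called, again none of the 30.

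The values nearest the threshold were those of Ggps1 and Srebf1. Ggps1 measured 70.0, 69.1, 81.0 and 83.7 CPM in Selp high and 49.2, 54.7, 58.3 and 72.5 CPM in Selp low libraries, overlapping through mouse 4. Its difference of 0.37 ± 0.12 ranked 98 of 16878 genes by p (edgeR adjusted p = 0.957). Srebf1, with the values given above, did not overlap and differed by -0.34 ± 0.11 (rank 108, edgeR adjusted p = 0.957). Pmvk was the other gene with no overlap, at 20.6, 22.6, 20.0 and 21.3 CPM against 32.3, 24.9, 26.9 and 22.7 CPM, a difference of -0.34 ± 0.14. Such a parting toward lower values was seen in 2 of 30 genes and in 1.56% of all genes, and toward higher values in 0 of 30 and 1.52%. Srebf2 differed by -0.30 ± 0.16.

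Within mice, the direction was the same in 4 of 4 for 10 of the 30 genes, beside 23% of all tested genes. It was higher in Selp high cells for 3, beside 10.8% of all genes, and lower for 7, beside 12.2%. Ggps1, Mylip and Sc5d were higher in Selp high cells of each mouse. Lss, Mvk, Nr1h2, Pmvk, Scap, Srebf1 and Srebf2 were lower in each. For Srebf1 the log2 difference ran from -0.57 to -0.13 and for Srebf2 from -0.53 to -0.08. For Scap it ran from -0.25 to -0.20, the narrowest of these 10 ranges. With the mouse as a block the estimates were 0.40 ± 0.09 for Ggps1, -0.32 ± 0.09 for Srebf2, -0.33 ± 0.10 for Srebf1 and -0.21 ± 0.07 for Scap (edgeR adjusted p = 0.171, 0.204, 0.222 and 0.240).

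Synthesis enzyme sums differed little between the 2 populations of 1 mouse beside the span over the 4 mice. The sums in Selp high and Selp low cells were 996.1 and 988.4 CPM in mouse 1, 707.2 and 731.9 CPM in mouse 2, 836.5 and 858.3 CPM in mouse 3, and 816.4 and 848.3 CPM in mouse 4. The difference within a mouse ran from -3.76% to 0.783%, while mouse 1 exceeded mouse 2 by over 250 CPM in both populations. Mice 3 and 4 differed less from each other within either population than their own populations did. Of the 19 enzymes, 10 were highest in mouse 1 in both populations and 6 were lowest in mouse 2 in both. Mvk was 1.64-fold and Lss 1.49-fold higher in mouse 1 than in mouse 2. Srebf2 ran the other way, highest in mouse 2 in both populations. These mice are single animals, so their differences are given as values without a test.

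**Figure D4:**
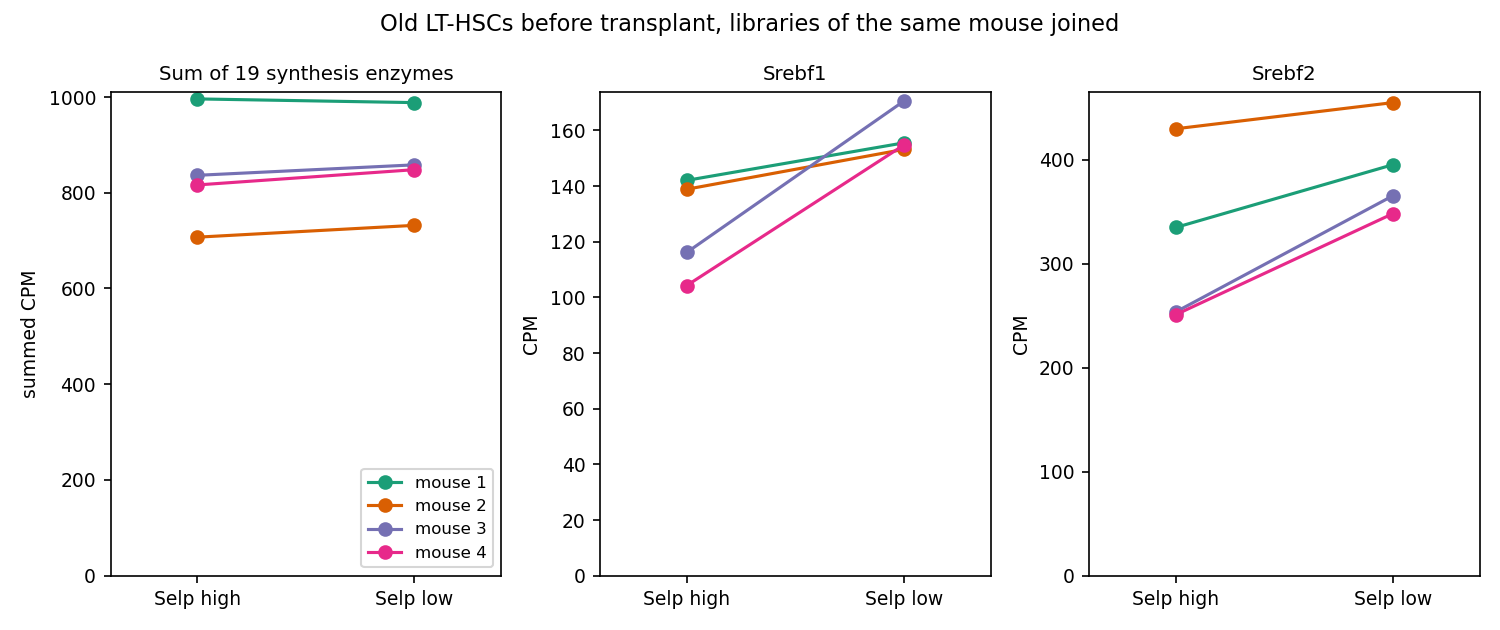
Summed CPM of 19 synthesis enzymes, and CPM of Srebf1 and Srebf2, in Selp high (left) and Selp low (right) libraries of each of 4 mice, joined by mouse, on linear axes from 0. The lines for the enzyme sum are nearly flat and keep the order of the mice, from 707.2 CPM in mouse 2 to 996.1 CPM in mouse 1 in Selp high cells, while all lines for Srebf1 and Srebf2 are lower at Selp high.

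The comparison after transplantation asked whether the input population left a trace in donor-derived LT-HSCs. No gene of the 30 was called, and edgeR called 0% of all genes, with 2 of 30 and 765 of 16878 at an unadjusted p under 0.05. DESeq2 called 25 genes in all and none of the 30, and limma voom called 0. Stard4 had the smallest p of the 30, at rank 22 of all 16878 genes. It measured 64.6, 75.5 and 72.1 CPM in Selp high-derived against 110.9, 112.8 and 116.8 CPM in Selp low-derived libraries, with a gap of more than 30 CPM between the groups. Its difference was -0.68 ± 0.16 (edgeR adjusted p = 0.621). Across the alternatives the adjusted p ran from 0.0511 with DESeq2 to 1 in 3 fits that left out post-transplant libraries.

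Before transplantation the same gene measured 59.9, 50.8, 46.0 and 53.0 CPM in Selp high and 57.7, 45.4, 48.3 and 73.8 CPM in Selp low libraries, which overlapped. Mylip measured 28.8, 31.5 and 32.1 CPM in Selp high-derived and 25.2, 19.7 and 26.0 CPM in Selp low-derived libraries, a difference of 0.38 ± 0.17 (edgeR adjusted p = 0.979). Sqle at 0.29 ± 0.18 and Nsdhl at 0.20 ± 0.16 had the next smallest p-values. Groups did not overlap for 3 of 30 genes toward higher values (Ggps1, Sqle and Mylip), against 4.79% of all genes, and for 2 of 30 toward lower values (Stard4 and Abcg1), against 5.55%. The synthesis enzymes had a median log2 difference of 0.14, with 14 positive and 5 negative values. It was 0.03 without Selp low-derived replicate 2, 0.05 without Selp high-derived replicate 3 and 0.08 without Selp high-derived replicate 2. Their sums were 1023 to 1145 CPM in Selp high-derived and 820.9 to 1077 CPM in Selp low-derived libraries. All 11 neutrophil markers (median -1.68) and all 5 mast cell and basophil markers (median -3.45) had negative values in this comparison. Of the 15 G2 and M phase genes, 14 had positive values, with a median of 0.12. None of these was called, and their part in the values of the 30 genes was not tested.

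Other genes of sterol and lipid handling were read in the same fit, in which 12.9% of all genes rose and 14.6% fell between stages. Counts of 1 or 2 genes in these short lists lie near such shares and are given as values only. Within uptake and lysosomal release, 2 of 9 rose between stages and 1 fell. Npc1, which releases cholesterol from lysosomes, was at 21.2 CPM after and 13.7 CPM before transplantation (medians), and Scarb1, a receptor for high-density lipoprotein, at 144.8 and 95.1 CPM, changes of 0.61 ± 0.11 and 0.53 ± 0.10 (edgeR adjusted p = 0.000866 and 0.0013). Lrpap1, a chaperone of lipoprotein receptors, fell by 0.23 on the log2 scale, and Vldlr, a lipoprotein receptor, was not called at -1.01 ± 0.42. Uptake genes and synthesis enzymes thus had calls in the same direction for Npc1 and Scarb1 and no common direction as a group, since the median of the 9 was -0.17.

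Among 11 genes of esterification and transfer, 1 rose and 2 fell, beside 12.9% and 14.6% of all genes. Gramd1b rose (0.45 ± 0.14) while its paralog Gramd1a fell (-0.48 ± 0.10), both encoding proteins that carry cholesterol from the plasma membrane to the endoplasmic reticulum. Osbpl9, an oxysterol-binding protein family member, fell by 0.42 on the log2 scale. Of the 8 genes of SREBP cleavage and sterol-regulated degradation, Erlin1 rose by 0.23 ± 0.07 and 7 were not called.

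The largest change among these genes was in Gpr183, a receptor for oxysterols. It ran at 18.2, 36.2 and 52.5 CPM after and 137.8, 168.9 and 220.5 CPM before transplantation, with no overlap, and its change of -2.28 ± 0.23 (edgeR adjusted p = 1.19e-05) is a 4.87-fold lower level. The other 3 tested genes of oxysterol metabolism were not called. Of 5 tested LXR targets outside the 30 genes, 2 fell, beside 14.6% of all genes. Smpdl3a, a phosphodiesterase, was at 227.7 CPM after and 293.0 CPM before transplantation (medians), a change of -0.40 ± 0.07, and Pltp, a phospholipid transfer protein, was at 0.874 and 2.06 CPM, a change of -1.67 ± 0.49. Lpcat3, an acyltransferase, was at -0.08 ± 0.07 and not called, and Abcg1 rose as given above.

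Of 15 fatty acid genes tied to SREBP-1, 5 rose and 3 fell, beside 12.9% and 14.6% of all genes. Fasn, fatty acid synthase, ran at 158.2, 180.6 and 251.5 CPM after and 45.9, 96.1 and 133.6 CPM before transplantation, with no overlap and a 2.13-fold difference (edgeR adjusted p = 0.000995). Elovl5, an elongase, rose by 0.52 ± 0.11. The desaturase genes Fads2 and Fads1 fell by 1.11 and 0.41 on the log2 scale, and for both no post-transplant library reached the lowest pre-transplant one. Among 13 genes that use isoprenoids, Pdss1, which builds the ubiquinone tail, rose by 0.53 ± 0.15, Nus1, of dolichol synthesis, fell by 0.42 on the log2 scale, and 11 were not called. None of these further genes was called between Selp high and Selp low or between their derived cells.

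**Figure D5:**
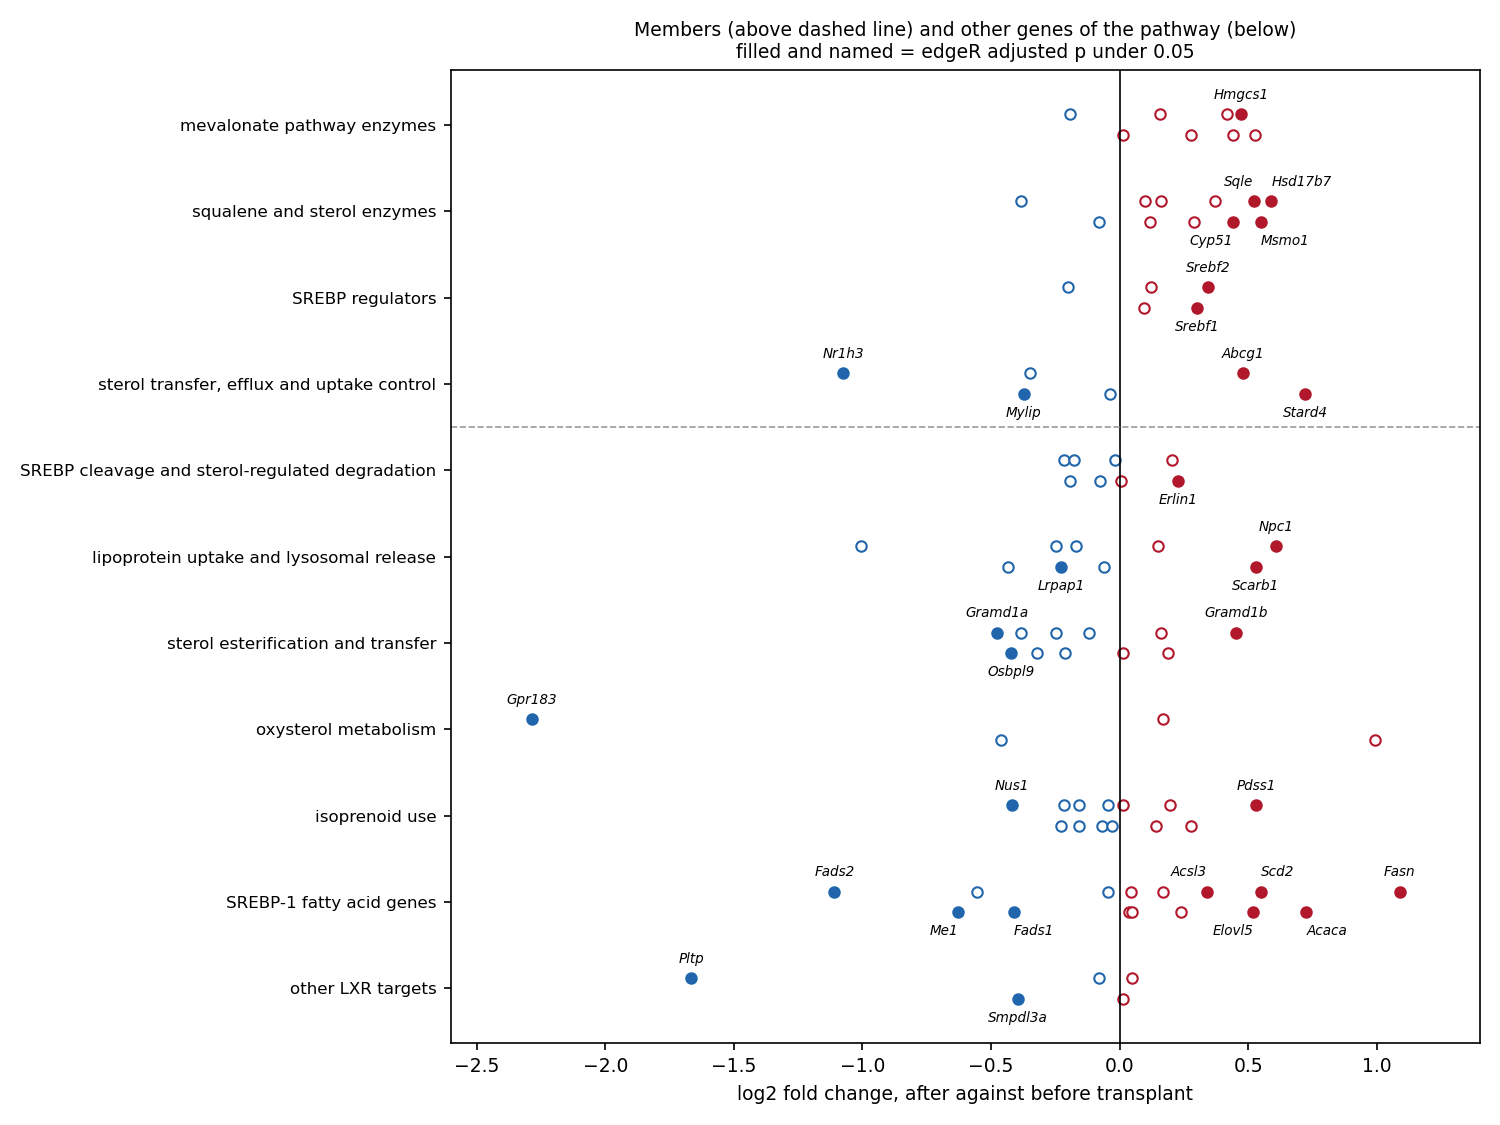
Log2 fold change, post-transplant against pre-transplant libraries, of the 30 genes (above the dashed line) and of other tested genes of sterol and lipid handling (below it), by role, with filled and named points called by edgeR. Filled points lie to the right for synthesis enzymes and SREBP genes, and on both sides of 0 for transfer, uptake and fatty acid genes, from -2.28 for Gpr183 to 1.09 for Fasn.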

How the data were processed

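Poly(A) RNA was turned into cDNA by template switching and into libraries by tagmentation, per the labels' protocols. The authors deposited raw counts of reads per gene. The submitters' processing notes name STAR 2.7.0d, FastQC 0.11.9, Picard 2.23.0 and the build GRCm38, but neither the annotation release nor how reads were counted. Unstranded counts were used, since strand-specific sums were nearly equal, so overlapping genes cannot be told apart. All 55450 identifiers matched GENCODE M21. Reads not assigned to 1 gene were left out.

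The members and gene lists were chosen with earlier results of these data known. Counts were fitted with edgeR 4.0.16 (R 4.3.3) by TMM and the quasi-likelihood test, on 4 group means over 14 libraries with 10 residual degrees of freedom, for the 16878 genes past its filter at a minimum count of 10. The common coefficient of biological variation was 0.322. P-values were adjusted over all tested genes by Benjamini-Hochberg and called under 0.05. CPM and FPKM use TMM library sizes, and FPKM the summed exon length. The depth of 22374794 to 38216775 reads bounds precision for low genes such as Fdps. Principal component 1 held 33.3% of the variance and parted the stages.

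Before transplantation, deviations from group means correlated across genes, with r of 0.289 to 0.527 where 2 libraries share a number and -0.401 to 0.0493 where they do not, and the design names 4 mice, so each number was read as 1 mouse. Post-transplant libraries that share a number had -0.0509 to 0.0248, with no pairing. Libraries of a group differed by more than counting noise (chi-square per degree of freedom 17.2 or more). Alternatives were another scaling (RLE), 2 other filters, DESeq2 1.42.0, voom in limma 3.58.1, the replicate block, and fits without single libraries or those that stood apart. Tests are named for called genes and, where 5 or fewer were called, for the 4 with the smallest p. In each further list at most 4 genes of smallest p and 2 of highest level per length were named.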

Additional observations from a re-analysis of the deposited data

Results flagged for a closer look

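Among 72 groups of 4 libraries examined for a single value far from the other 3, 4 stood out, and chance gives about 1 in 20 such groups. All 4 lie in Selp low cells. Only pre-transplant groups hold 4 libraries, so no post-transplant group, with 3 libraries each, was examined. Insig1 was at 123.6 CPM in replicate 1, against 108.0 to 110.4 CPM in the other 3. Mylip was at 24.42 CPM in replicate 1, against 33.8 to 34.81 CPM. Nr1h3 was at 13.32 CPM in replicate 4, against 16.33 to 16.88 CPM, and that value still exceeds every post-transplant library. Srebf1 was at 170.5 CPM in replicate 3, against 153.2 to 155.5 CPM.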

How the results depend on the processing

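No result changed its direction while called in any of 22 alternatives. Between stages, Hmgcs1, Sqle, Msmo1, Hsd17b7, Stard4 and Nr1h3 were called in all of them, while 6 to 11 genes of the 30 rose and 1 to 2 fell, the 1 also without Selp high-derived replicate 1 and Selp low-derived replicate 2 together. Leaving out 1 library gave 1 to 6 rising genes and 1423 to 2827 calls over all genes within Selp high, and 1 to 2 rising, 1 to 2 falling and 803 to 2723 calls within Selp low. Within Selp low, 1 gene rose with no filter on low counts, and 2999 genes were called without both mouse 4 libraries. The lowest of these counts came without Selp high-derived replicate 2 (1 riser within Selp high), without Selp high-derived replicate 3 (1423 calls) and without Selp low-derived replicate 1 (803 calls). Between Selp high and Selp low, calls over all genes, 0 as reported, were 11 with DESeq2, 1 with no filter, 2 with the replicate block and 0 to 2 with 1 library left out. Between the derived groups they were 25 with DESeq2, 2 with the replicate block, 1 without both mouse 4 libraries and 0 with 1 library left out, and for the difference of these comparisons 11 with DESeq2. None was among the 30 genes. The block ended the call of Hsd17b7 and added Abcg1 within Selp low and changed no other call of the 30, and the cause of these changes was not tested. The median change of synthesis enzymes stayed at 0.24 to 0.42 between stages, and ran from -0.18 to 0.04 between Selp high and Selp low. Precision was lowest for Fdps and Tm7sf2, with standard errors of 0.30 and 0.23 between stages.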
